A study of Oryza sativa with 2 samples.

Results

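The genes described here were well expressed in rice leaves and stood higher in the RNA-seq library labelled *yl-1* than in the one labelled wild-type (WT). They are the entries of the expression table that were above 0 in both libraries, had a mean of at least 5 FPKM, and had a log2((FPKM + 1) ratio) of at least 1. FPKM is the number of sequenced fragments scaled to transcript length and to the total of mapped fragments. In all, 139 of the 42152 entries in the table met the rule. Of the 8851 entries above 0 in both libraries with a mean of at least 5 FPKM, which are called the compared entries here, these 139 are 1.57%, and 255 (2.88%) met the mirrored rule for lower entries. Since the members were chosen by these values, their levels and ratios are a description and were not tested.

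The wild-type was *indica* rice cv. Zhongjiazao 17, and *yl-1* is a yellow-leaf mutant from an EMS-induced library of the same cultivar. EMS changes single bases at many places in a genome, so a mutant can carry further changes. Leaves came from plants kept in a growth chamber at 26°C with 12 h of light at 300 μmol m−2 s−1 and 12 h of dark. There is 1 library per genotype, so no error between plants is known and every difference describes these libraries only.

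Chlorophyll is built in plastids from porphyrin precursors. *YL-1* encodes a subunit of the cyclase that closes an additional ring on the magnesium porphyrin, a step on the way to protochlorophyllide. Chlorophylls are then bound by antenna proteins and photosystem subunits in the thylakoid membrane. Leaves that hold less chlorophyll look yellow.

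*YL-1* (LOC_Os01g17170) stood at 671 FPKM in the WT-labelled library and at 1124 FPKM in the *yl-1*-labelled library, a log2 ratio of 0.74, so it was not a member. The mutation replaces a single base of the coding region, which FPKM does not show. The level of *YL-1* was not used to decide which library carries the mutation. A list of selected genes that accompanies the study gives most of the values of these columns under the opposite genotype names. For several genes that act before YL-1, *OsChlI* among them, its wild-type value is also that of the *yl-1*-labelled column. Its *yl-1* value for these genes equals neither column. Directions are therefore given for the *yl-1*-labelled library, and they turn around if the columns of the table are exchanged. Leaf genes were abundant in both libraries, as *PsbO*, a subunit of photosystem II, was at 3824 and 5206 FPKM, and *PsaL*, a subunit of photosystem I, at 2212 and 2578 FPKM. FPKM summed to 738866 in the WT-labelled library and 823855 in the *yl-1*-labelled library, and the number of reads is unknown.

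Among the members, the gene whose function a source names is *Chl a-b binding protein* (LOC_Os01g14410, chromosome 1). Proteins of this name bind chlorophyll in the thylakoid membrane. It was read at 243 FPKM in the WT-labelled library and at 1181 FPKM in the *yl-1*-labelled library, which is 4.85 times as much and a log2 ratio of 2.27. It was the fourth most abundant member, and the only member with a mean of at least 100 FPKM and a log2 ratio of at least 2. The study selected this gene on the same libraries. Its list gives the FPKM values of the gene under the opposite genotype names, as lower in *yl-1*. The gene is therefore no independent evidence of a direction.

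The study names 24 loci of chlorophyll synthesis, photosynthesis and chloroplast development, of which 22 were among the compared entries and 1 was a member. The other 21 lay within the limits of the rule on either side. Closest to the threshold was *ASL2* (LOC_Os02g15900), a gene of chloroplast development, with 20.9 FPKM in the WT-labelled library and 41.6 FPKM in the *yl-1*-labelled library, a log2 ratio of 0.96. *OsSTN8* (LOC_Os05g40180), a protein kinase of the thylakoid, followed with 11.2 and 22.2 FPKM and a log2 ratio of 0.93. *OsChlI* (LOC_Os03g36540), a subunit of Mg-chelatase, stood at 11.3 and 20.7 FPKM (log2 ratio 0.82), and the ribosomal protein gene *Rpl16* (LOC_Os01g57958) at 5.53 and 10.4 FPKM (0.81). These 4 genes were higher in the *yl-1*-labelled library but outside the rule. Of the 22 compared loci, 21 had a log2 ratio above 0, beside 51.6% of all compared entries, but the study chose the whole list on the same libraries and the count is no independent evidence of a direction. The exception was *OsClpD1* (LOC_Os02g32520), a subunit of the chloroplast Clp system, with 121 and 62.1 FPKM and a log2 ratio of -0.95.

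The remaining 138 members carry locus IDs that no source used here pairs with a name, and no role is given to them. Their IDs state the chromosome and the order along it.

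**Figure D1:**
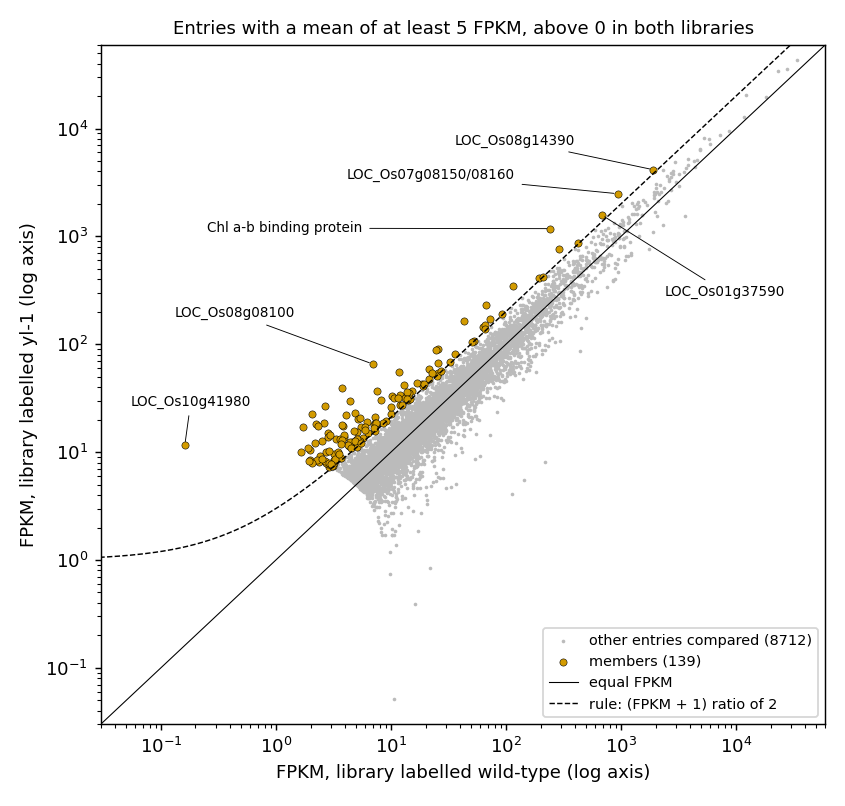
Each point is 1 of the 8851 compared entries, with its FPKM in the WT-labelled library on the x axis and in the *yl-1*-labelled library on the y axis, both on log axes. The 139 members lie on or above the dashed line of the rule, most of them at low levels. Among members with a mean of at least 100 FPKM, *Chl a-b binding protein* lies farthest above that line.

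Of the 139 members, 89 had a mean under 20 FPKM. The median of the members' means was 12.4 FPKM, beside 15.8 FPKM over all compared entries. The members' median was 5.52 FPKM in the WT-labelled library (0.162 to 1907) and 18.4 FPKM in the *yl-1*-labelled library (7.35 to 4157). The compared entries had medians of 15.9 and 15.7 FPKM, respectively. In the WT-labelled library, 63 members were under 5 FPKM and 88 were under 10 FPKM, while 23 were under 10 FPKM in the *yl-1*-labelled library. Entries of low level in 1 library could meet the rule only through their level in the other. Members held 0.882% of the FPKM sum of the WT-labelled library and 1.99% of that of the *yl-1*-labelled library.

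The median log2 ratio of the members was 1.31, against 0.012 over all compared entries. Most ratios were near the threshold, as 91 members had a log2 ratio under 1.5, whereas 19 had at least 2 and 3 had at least 3. Without a pseudocount the ratio ranged from 2.01 to 71.9, with a median of 2.74. Of the 19 members with a log2 ratio of at least 2, 14 had a mean under 20 FPKM. Just inside the threshold were LOC_Os01g60830 (209.6 and 420.8 FPKM, log2 ratio 1.00) and LOC_Os04g38420 (5.09 and 11.2 FPKM, 1.00). Just outside it was LOC_Os08g32910 (7.29 and 15.5 FPKM, 0.99), with LOC_Os09g26580 (39.9 and 80.2 FPKM, 0.99) and LOC_Os11g41680 (11.2 and 23.2 FPKM, 0.99) next to it. These entries were nearly alike on either side of the threshold. At the limit on the mean, LOC_Os04g33990 with 2.07 and 7.95 FPKM was just inside (mean 5.01 FPKM) and LOC_Os11g16990 with 2.73 and 7.24 FPKM just outside (mean 4.99 FPKM). Another 15 entries met the other conditions but were listed at 0 in the WT-labelled library, and 173 had a mean from 1 to 5 FPKM.

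The share of compared entries that were members was 2.02% from 5 to 10 FPKM (57 of 2821), 0.782% from 50 to 100 FPKM (6 of 767) and 3.23% at 1000 FPKM and above (3 of 93). Entries of the mirrored rule outnumbered members in each of the 5 lower classes, and in the highest class there were 3 members and 2 lower entries. Past neither rule were 88 entries at 1000 FPKM and above, with a median log2 ratio of 0.30, and 803 from 100 to 1000 FPKM, with a median of 0.10. With the libraries rescaled to the same FPKM sum, a setting chosen after seeing the data, these medians were 0.14 and -0.057, so the sign of the second depends on the scaling.

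**Figure D2:**
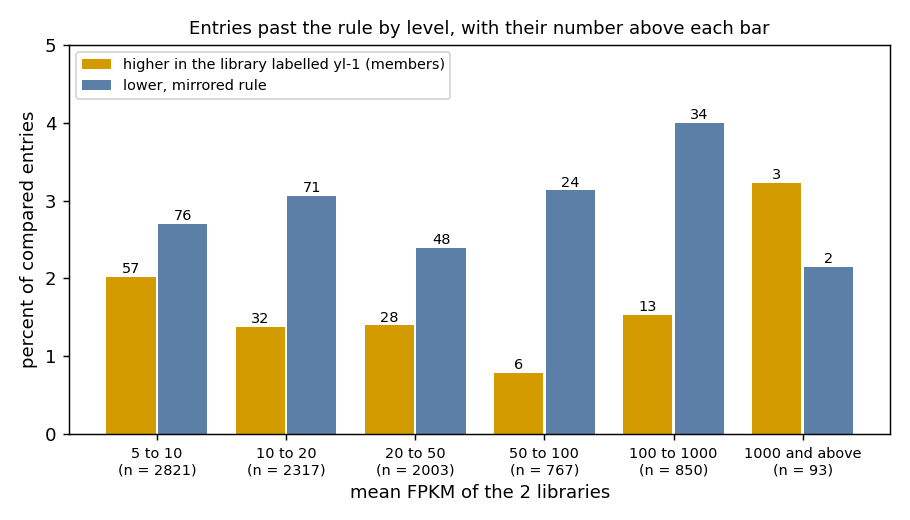
Bars give the percent of compared entries past the rule in each class of mean FPKM, for members and for entries lower by the mirrored rule, with the number of entries above each bar. Members were 57 of 2821 entries from 5 to 10 FPKM and 3 of 93 at 1000 FPKM and above.

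The most abundant members accounted for most of the FPKM of the set. LOC_Os08g14390 stood at 1907 FPKM in the WT-labelled library and 4157 FPKM in the *yl-1*-labelled library (log2 ratio 1.12). The entry that joins LOC_Os07g08150 and LOC_Os07g08160 was at 934 and 2489 FPKM (1.41). LOC_Os01g37590 was at 679 and 1582 FPKM (1.22). Together these 3 entries made up 50.1% of the members' FPKM in the *yl-1*-labelled library, and the 10 most abundant members 75.8%.

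Below *Chl a-b binding protein*, 6 more members had means from 149.9 to 646 FPKM. Their levels were 420.0 and 872 FPKM for LOC_Os02g38210, and 290 and 759 FPKM for LOC_Os08g04500. LOC_Os01g60830 was named above, and LOC_Os01g25484 was close to it with 194 and 407 FPKM. The last 2 of the 10 had the wider differences, as LOC_Os01g74300 was at 115 and 350.1 FPKM (log2 ratio 1.60) and LOC_Os03g04470 at 66.8 and 233 FPKM (1.79). Of the 10 most abundant members, *Chl a-b binding protein* had the largest log2 ratio.

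The members with the widest differences were other genes, and 0 of them were among the 10 most abundant. All 10 were under 10 FPKM in the WT-labelled library. LOC_Os10g41980 was at 0.162 FPKM there and at 11.6 FPKM in the *yl-1*-labelled library (log2 ratio 3.44). LOC_Os09g02770 was at 3.78 and 39.3 FPKM (3.07), and LOC_Os08g08100 at 6.95 and 65.6 FPKM (3.07). These were the 3 members past a log2 ratio of 3, and LOC_Os08g08100 was the most abundant of the 10.

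Next came LOC_Os08g42940 with 2.07 and 22.7 FPKM, LOC_Os01g23000 with 2.68 and 27.0 FPKM, and LOC_Os09g12300 with 1.71 and 17.2 FPKM, each 10.1 to 11.0 times higher in the *yl-1*-labelled library. The other 4 were LOC_Os02g37200 (2.25 and 18.0 FPKM), LOC_Os02g04400 (4.41 and 30.1 FPKM), LOC_Os06g50970 (2.33 and 17.6 FPKM) and LOC_Os03g38650 (2.63 and 18.7 FPKM), with log2 ratios from 2.44 to 2.55. At such levels a ratio rests on a small value in the WT-labelled library, whose counting error cannot be given because the fragment numbers are unknown.

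**Figure D3:**
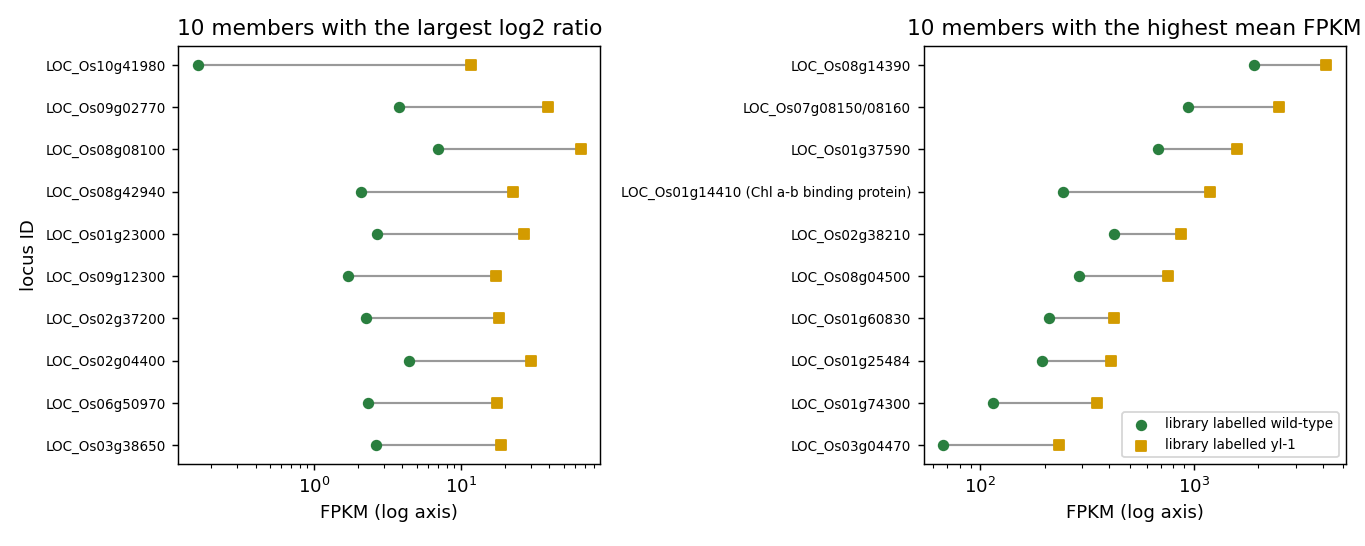
FPKM of single members on log axes, with circles for the WT-labelled library and squares for the *yl-1*-labelled library. On the left, the 10 members with the largest log2 ratio all start under 10 FPKM, and on the right the 10 most abundant members include *Chl a-b binding protein* at 243 and 1181 FPKM.

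Members were found on all 12 chromosomes. Chromosome 3 held the most with 25 and chromosome 11 the fewest with 4. As a share of the compared entries, members ranged from 0.901% on chromosome 5 (7 of 777) to 2.63% on chromosome 6 (18 of 685). On chromosome 12 there were 9 members and 6 lower entries, and on each of the other 11 chromosomes the lower entries were more numerous. LOC_Os01g16980, a member at 25.7 and 54.0 FPKM (log2 ratio 1.04), is 190 ID numbers from *YL-1*. It is outside the rule for named genes and was picked for its position. Between it and *YL-1*, the compared entries LOC_Os01g17050, LOC_Os01g17060, LOC_Os01g17065 and LOC_Os01g17150 had log2 ratios of -0.60, -0.29, -0.018 and 0.52, respectively. A link of its level to the *YL-1* locus was not tested.

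Some members were neighbours. When members whose ID numbers lay within 100 of each other on a chromosome were joined in a chain, 18 of the 139 members fell into 8 clusters on 6 chromosomes, 2 of 3 members and 6 of 2 members. The other 121 had no member that near. The rule did not use position. Around the members, 18 of the 500 other compared entries within 100 ID numbers were members (3.60%), beside 1.57% of all compared entries. Lower entries made up 3.60% of the same neighbours, beside 2.88% of all compared entries, and the neighbours' median log2 ratio was -0.0030. Around the lower entries, 43 of 1004 neighbours were lower (4.28%) and 17 were members (1.69%). Neighbouring IDs say nothing of shared sequence, and whether cluster members are copies of a gene was not examined.

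The most abundant of the members in clusters was on chromosome 7. There the entry of LOC_Os07g08150 and LOC_Os07g08160, at 934 and 2489 FPKM, was near LOC_Os07g08200 at 5.44 and 20.5 FPKM (log2 ratio 1.74). Between them lay 3 entries under the level filter, with log2 ratios of -0.077 to 0.069. The cluster of chromosome 10 held the member with the widest difference. LOC_Os10g42020 was at 43.5 and 165 FPKM (1.90) near LOC_Os10g41980, and the entry between them, LOC_Os10g41999, was below the level filter but also higher, at 0.154 and 1.99 FPKM.

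On chromosome 3, LOC_Os03g58230 was at 63.3 and 143 FPKM (log2 ratio 1.17), LOC_Os03g58290 at 3.87 and 17.6 FPKM (1.94) and LOC_Os03g58300 at 1.96 and 10.4 FPKM (1.94). The last 2 have adjacent IDs and the same log2 ratio to 2 decimals. The 2 compared entries between the first and these were outside the rule. LOC_Os03g58250 was at 15.5 and 14.1 FPKM (log2 ratio -0.13), while LOC_Os03g58260 was higher at 4.39 and 6.67 FPKM (0.51).

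The other cluster of 3 members, on chromosome 2, was the most mixed. Its members LOC_Os02g57670, LOC_Os02g57720 and LOC_Os02g57790 were at 9.06 and 19.3, 25.5 and 66.4, and 5.34 and 12.7 FPKM, respectively. LOC_Os02g57700 in the same stretch met the mirrored rule, with 12.3 and 4.87 FPKM (log2 ratio -1.18). The other 4 compared entries of the stretch had log2 ratios of 0.26 to 0.59.

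Of the remaining pairs, LOC_Os04g54590 (7.23 and 15.7 FPKM) and LOC_Os04g54610 (13.0 and 42.3 FPKM) on chromosome 4 were separated by an entry at 0 in both libraries. LOC_Os02g37200 and the entry of LOC_Os02g37290 and LOC_Os02g37300 (25.03 and 51.2 FPKM) enclosed 6 entries at 0 in both libraries. LOC_Os03g05800 (27.3 and 56.9 FPKM) and LOC_Os03g05860 (2.38 and 8.04 FPKM) enclosed 2 compared entries, with log2 ratios of -0.21 and 0.65. The sixth pair, which is outside the rule for named genes and was picked after its values were seen, was LOC_Os01g27040 (4.85 and 23.2 FPKM) and LOC_Os01g27140 (3.94 and 13.8 FPKM). There LOC_Os01g27050, under the level filter, was at 0.876 and 3.37 FPKM. Over all 8 clusters, 37 further entries lay between members, of which 15 were at 0 in both libraries, 9 were compared, and 1 of these 9 was lower by the mirrored rule.

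**Figure D4:**
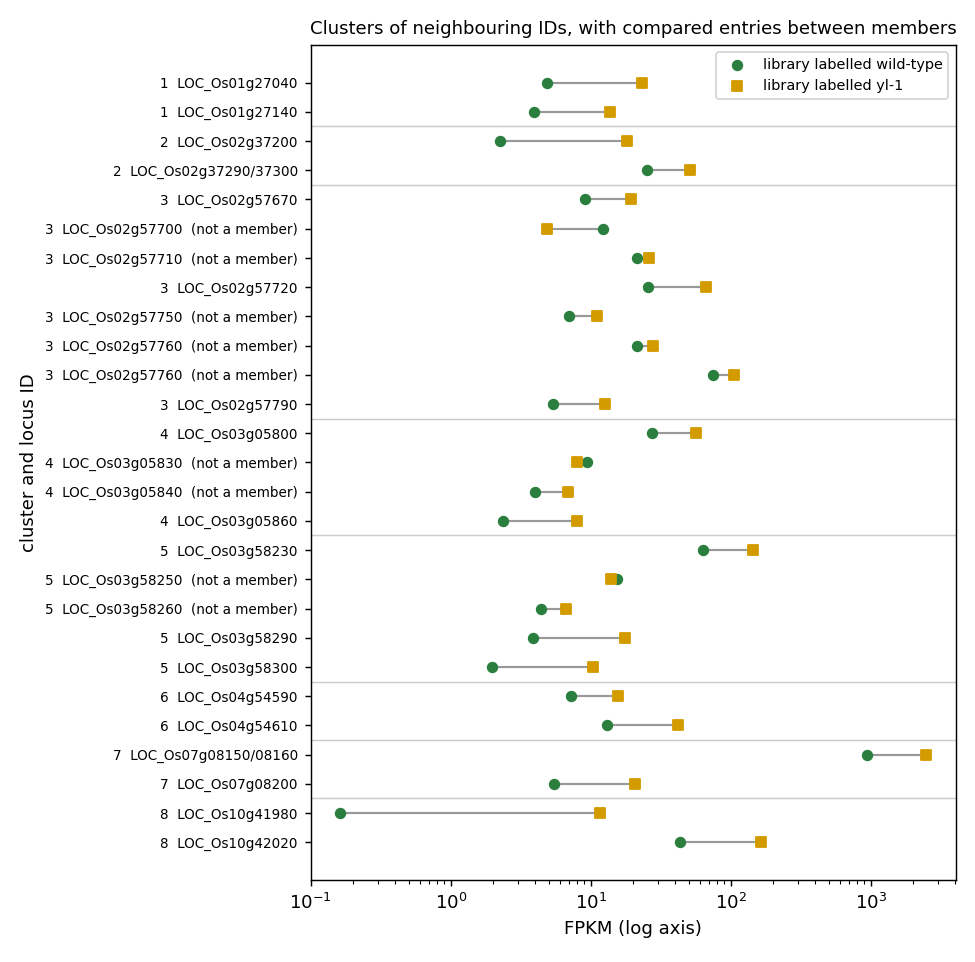
FPKM on a log axis for the 18 members in the 8 clusters of neighbouring IDs, numbered in order of chromosome, and for the 9 compared entries between them that were not members. Circles are the WT-labelled library and squares the *yl-1*-labelled library, and LOC_Os02g57700 is the entry whose square lies far to the left of its circle.

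For 16 of the 139 members the same locus ID stood in a further entry of the table. Over the whole table, 855 of the 42152 entries shared their name with another entry. The share among the compared entries was not counted. The table lists each chromosome in 2 runs of ascending IDs, and 6 of the 8 clusters above held members of both runs. All 16 members with a further entry had one in the run that the member was not in. The sources used here do not say what the runs stand for or whether the reads kept their strand, so fragments of such a locus may be divided between entries. The further entries were higher in the *yl-1*-labelled library for 8 of the 16 loci, lower for 5 and at 0 in both libraries for 3. When all entries of a locus were added up, 13 of the 16 still met the log2 threshold.

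The 3 others did not. LOC_Os07g06420 had a member entry at 4.46 and 10.9 FPKM and a further entry at 47.2 and 21.6 FPKM, and their sum was lower in the *yl-1*-labelled library, at 51.6 and 32.5 FPKM (log2 ratio -0.65). LOC_Os06g05050 had 4.96 and 12.9 FPKM in the member entry and 26.1 and 21.4 FPKM in the other, so that the sum had a log2 ratio of 0.14. LOC_Os04g27700 stood at 2.71 and 7.94 FPKM beside 4.59 and 3.53 FPKM, with a log2 ratio of 0.59 for the sum. In these 3 loci the member entry held the smaller part of the FPKM in the WT-labelled library, as it did in LOC_Os03g46424 and LOC_Os11g29130, whose sums had log2 ratios of 1.09 and 1.01. For 12 of the 16 loci the further entries were all under a mean of 5 FPKM, and for some they were too low to change the sum, as for LOC_Os08g08100 and LOC_Os09g12300, whose further entries were at 0 in both libraries. LOC_Os03g38650, with a further entry at 1.33 and 0.759 FPKM, went from a log2 ratio of 2.44 to 2.05.

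**Figure D5:**
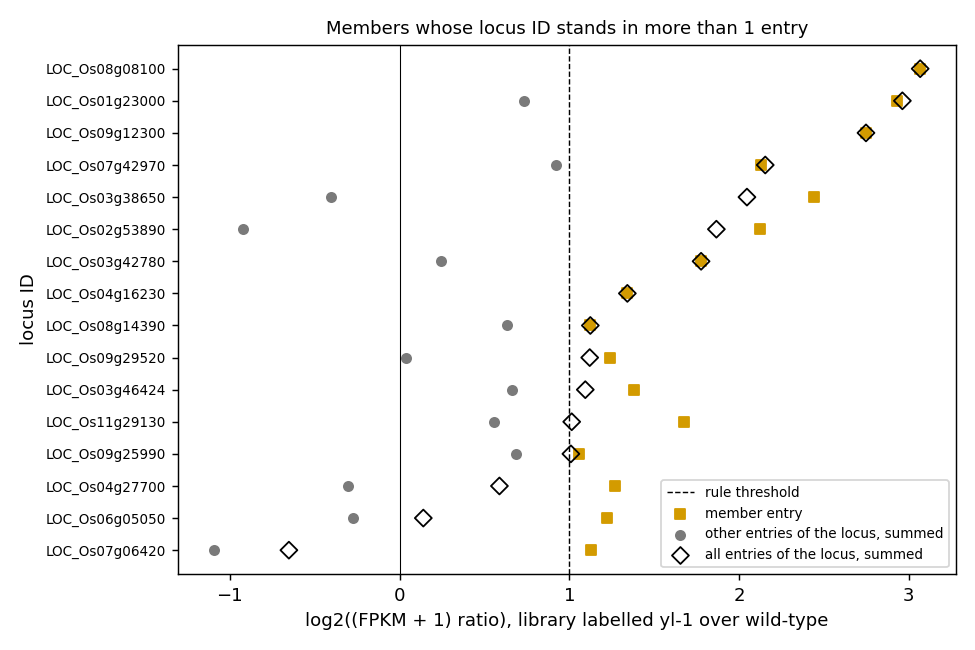
The x axis is the log2((FPKM + 1) ratio) of the *yl-1*-labelled library over the WT-labelled library for the 16 members whose locus has further entries. Squares are the member entry, grey circles the further entries (none drawn where these were at 0 in both libraries) and diamonds their sum, which lies left of the dashed threshold for LOC_Os04g27700, LOC_Os06g05050 and LOC_Os07g06420.

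The number of members depends on how the libraries are scaled to each other. With the *yl-1*-labelled library rescaled to the FPKM sum of the other, 91 of the 139 members remained, and 355 entries were lower in place of 255. The share of higher entries among those past the rule went from 35.3% to 20.4% (it would be 64.7% with the column names exchanged and no rescaling), and the median log2 ratio of the compared entries from 0.012 to -0.13. *Chl a-b binding protein* and the 10 members with the widest differences were past the threshold under this scaling as well, whereas LOC_Os08g14390 (0.97), LOC_Os02g38210 (0.90), LOC_Os01g25484 (0.91) and LOC_Os01g60830 (0.85) were not.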

How the data were processed

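Leaf RNA-seq of rice comprised 1 library labelled wild-type and 1 labelled *yl-1*, made from poly(A) RNA (about 5 μg of total RNA, average insert 300 bp). The authors deposited FPKM values for both, and the submitters' processing notes name TopHat, Cufflinks and Cuffdiff. The genome build, tool versions, annotation and filters were not given in the sources used here. Columns were assigned by their names, and 0 columns of values were left unused. An alternative exchanged these names.

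Entries were compared as log2((FPKM + 1) ratio) if both values were above 0 and their mean was at least 5 FPKM, and no test was possible with 1 library per genotype. Fragment totals are unknown. Among 796 entries above 0 in both libraries with a mean under 0.1 FPKM, the most frequent ratio was 1.11 to 1.19. Only 59 of them fell in that class, so it gives no ratio of the fragment totals. An entry with several IDs was placed by all of them. Of 41981 locus IDs, 0 matched RefSeq (assembly ASM3414082v1), so names come from the study alone and no sequences are shown.

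The members and lists were chosen with earlier results of these data known. Genes named were members with a name, the 10 largest ratios, the 10 highest means, clusters of 3 and the 5 most abundant pairs, 3 entries on either side of the threshold, and genes of the study with a log2 ratio of at least 0.8. Loci with several entries were set beside their sums. Alternatives were other pseudocounts, filters, thresholds, scalings, cluster distances and summed loci. Python 3.11.15, numpy 2.4.6, pandas 2.3.3 and matplotlib 3.10.9 were used.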

Additional observations from a re-analysis of the deposited data

How the results depend on the processing

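No paired analysis was possible because each genotype has 1 library. The 139 members and 255 lower entries were counted among 8851 compared entries, and a filter on the mean changes that number too. A mean of at least 1 FPKM gave 312 members and 455 lower entries among 14431. No filter on the mean gave 319 and 473 among 19163. A mean of at least 10 FPKM gave 82 and 179 among 6030. A threshold of 1.5-fold gave 569 members beside 777 lower entries, and one of 4-fold 19 beside 30. Rescaling to the same FPKM sum gave 91, while the other scalings gave 114 to 134. Each of these scalings lowered the values of the *yl-1*-labelled library, so it could only remove members. Pseudocounts of 0.1 and 0 gave 169 and 173 members, beside 294 and 298 lower entries. Summing entries of a locus gave 145 beside 252. Exchanging the column names swaps the counts by construction, to 255 beside 139. The 18 members in clusters became 44 at a mean of at least 1 FPKM, 140 at 1.5-fold, 9 under the same FPKM sum, 10 with IDs within 50 and 20 with IDs within 200. Of 52 single entries followed, 12 crossed the threshold under the same FPKM sum. Under a median log2 ratio of 0, a pseudocount of 0.1 and a pseudocount of 0, 3 crossed it in each. The entries followed had log2 ratios of 0.81 and above, so these settings could not turn their sign. Of 16 loci with several entries, the sum for LOC_Os07g06420 turned to -0.65. The cause was not tested, and replicate error and counting depth limit every value.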
